A study of Mus musculus with 18 samples.

Results

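TRiC (also called CCT) is the chaperonin of the mammalian cytosol, a closed chamber of stacked rings in which newly made proteins fold with the use of ATP. Each position in a ring is taken by a different but related subunit, and each subunit is the product of its own gene, so assembly of a complete particle needs all of them. Its best known substrates are actin and tubulin, which cannot reach their native state without it, and it also folds WD40 proteins and several cell cycle regulators. Prefoldin delivers unfolded actin and tubulin to the chamber, and proteins of the phosducin-like family act as its cochaperones. The genes described here were the 8 that encode the subunits, of 20207 genes in the files: Tcp1 (the alpha subunit), Cct2 (beta), Cct3 (gamma), Cct4 (delta), Cct5 (epsilon), Cct6a (zeta), Cct7 (eta) and Cct8 (theta). The rule takes them by gene name, and all 8 had reads in all 18 samples and so were among the 12731 genes tested. The question was whether the mRNAs of these subunits move together under proteotoxic stress.

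The samples were NIH3T3 cells, an established line of mouse fibroblasts, that stably expressed a destabilizing domain (DD) fused to superfolder GFP. The construct had been integrated with a PiggyBac transposon, and cells with high GFP had been selected by flow cytometry. The ligand Shield-1, which holds the DD in its folded state, was kept in the medium of every group, controls included. The control group was harvested at 0 min with no stress, the HS groups after 45 or 135 min of heat stress, and the Tun groups after 45, 135 or 405 min of tunicamycin, an inhibitor of N-linked glycosylation that causes unfolded proteins to accumulate in the endoplasmic reticulum. Each of the 6 groups had 3 samples, and nothing in the sources used here says that these came from separate cultures, so the tests measure the spread between these samples. In bulk RNA, fewer cells that express a gene and less RNA per cell cannot be told apart.

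Reads assigned to genes ranged from 33415592 to 66478268 per sample. All 8 fibroblast markers examined (Col1a1, Col1a2, Col3a1, Vim, Thy1, S100a4, Pdgfrb and Fn1) had reads in every sample. Of 8 markers of other cell types, Epcam, Ptprc and Krt18 had at most 3, 2 and 6 reads, Pecam1 0 to 13 and Krt8 0 to 29. The other markers had reads in every sample: Cdh1 7 to 33, Cdh5 5 to 23 and Cd68 242 to 534. The stresses were visible in their known targets: at HS 135 min the heat-inducible chaperone gene Hspa1b was higher by 7.24 on the log2 scale (adjusted p = 0.0058), and at Tun 405 min the ER chaperone gene Hspa5 was higher by 3.73 (adjusted p = 4.6e-06). Hspa5 was not particular to Tun, since it was also called higher at HS 135 min, by 0.96 (adjusted p = 0.031). In 4 libraries (HS 45 min replicates 1 and 2, HS 135 min replicate 2 and Tun 135 min replicate 1) gene levels rose with the GC content of the transcript more steeply than in the other 14, with a Spearman rho between log2 CPM and GC above 0.2 (0.259, 0.278, 0.288 and 0.227, against 0.0517 to 0.162 elsewhere). Within the controls, replicate 1 stood at 0.149 and replicates 2 and 3 at 0.0519 and 0.0517. For the comparisons that include these libraries, the subunit results are also given without them.

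In unstressed cells the subunit mRNAs were abundant but not equal. Levels are given as RPKM, read counts scaled to gene length and library size, which allows genes of different length to be compared. Cct5 was the highest with 301 ± 58.1 RPKM (mean ± SD, n = 3), followed by Cct2 with 235 ± 61.5, Cct7 with 230.4 ± 27.7 and Cct3 with 186 ± 33.9. The other subunits were lower, with 123 ± 32.0 for Cct6a, 99.4 ± 22.9 for Cct4, 92.3 ± 40.9 for Tcp1 and 73.8 ± 33.2 for Cct8. The ranges of neighbours in this order overlapped in every case. Cct5 accounted for 22.6% ± 1.08 of the summed RPKM of the 8 genes and Cct8 for 5.29% ± 1.42. The sum itself was 1340 ± 309 RPKM in the control group, with replicate 1 at 989.9 and replicate 3 at 1574.

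**Figure D1:**
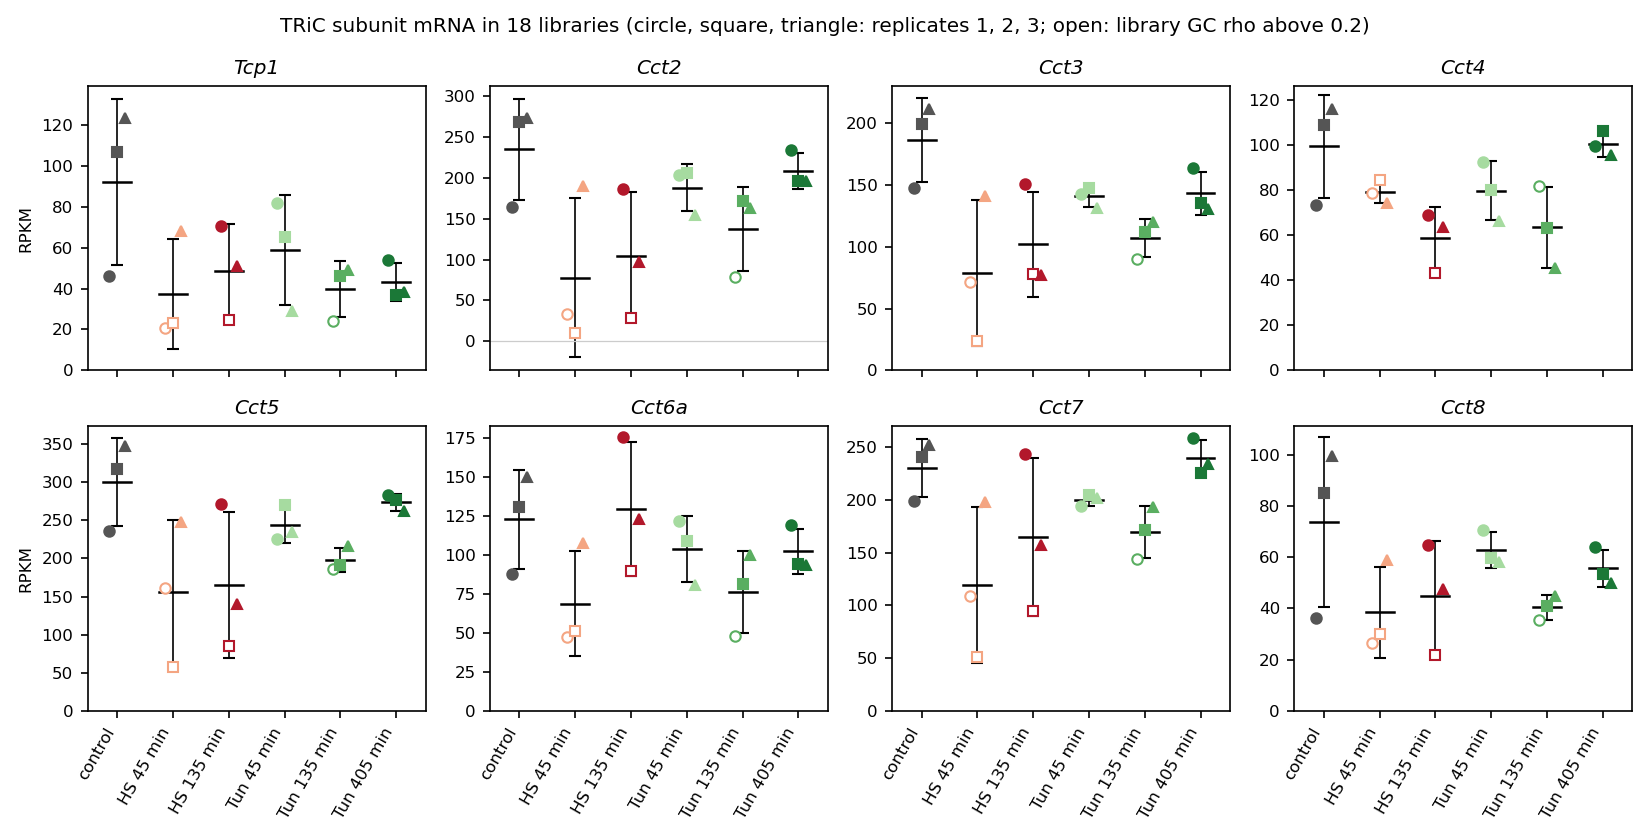
RPKM of each TRiC subunit (y axis) in the 6 groups (x axis), with 1 point per library and black bars for the mean ± SD of 3 libraries; open symbols are the 4 libraries whose Spearman rho between gene level and transcript GC content was above 0.2. For most subunits the open symbols are the lowest of their group, but in the Cct4 panel they are not at HS 45 min or Tun 135 min, and control replicate 1 (circle) lies below the other controls in all 8 panels.

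The promoters of the subunits were examined beside those of heat shock genes, since heat shock factors act through repeats of the pentamer nGAAn. RefSeq promoter sequences (build GRCm38.p6, 250 bases before to 50 after the start of transcription) matched 7 of the 8 genes by symbol, in 9 windows. Cct4 was not matched. Facing units (GAANNTTC) were found in 1 of the 9 windows and in 7.86% of 32851 mouse promoters, and opposed units (TTCNNGAA) in 2 of the 9 and in 8.52% of all. Both strands were searched. A 3-unit array, GAANNTTC followed directly by NNGAA, contains both of these motifs. It was in none of the 9 windows and in 0.603% of all promoters, and it was present upstream of Hspe1, the cofactor of the mitochondrial chaperonin. The windows of the 3 subunits with a match are printed with that of Hspe1 for comparison, with the matching bases in capitals.
Cct2, chr10:117063326-117063625, minus strand: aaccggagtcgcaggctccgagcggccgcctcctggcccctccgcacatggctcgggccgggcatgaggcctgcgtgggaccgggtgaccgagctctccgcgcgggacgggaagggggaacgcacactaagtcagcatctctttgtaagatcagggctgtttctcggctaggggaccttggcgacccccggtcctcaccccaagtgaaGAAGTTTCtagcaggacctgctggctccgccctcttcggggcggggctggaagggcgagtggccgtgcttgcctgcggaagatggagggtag
Cct5, chr15:31601797-31602096, minus strand: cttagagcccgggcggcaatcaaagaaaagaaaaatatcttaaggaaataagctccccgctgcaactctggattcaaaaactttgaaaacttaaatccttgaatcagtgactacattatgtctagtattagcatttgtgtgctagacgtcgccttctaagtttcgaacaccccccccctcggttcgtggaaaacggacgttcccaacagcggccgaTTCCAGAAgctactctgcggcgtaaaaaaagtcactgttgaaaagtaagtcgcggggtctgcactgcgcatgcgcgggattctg
Cct6a, chr5:129787106-129787405, plus strand: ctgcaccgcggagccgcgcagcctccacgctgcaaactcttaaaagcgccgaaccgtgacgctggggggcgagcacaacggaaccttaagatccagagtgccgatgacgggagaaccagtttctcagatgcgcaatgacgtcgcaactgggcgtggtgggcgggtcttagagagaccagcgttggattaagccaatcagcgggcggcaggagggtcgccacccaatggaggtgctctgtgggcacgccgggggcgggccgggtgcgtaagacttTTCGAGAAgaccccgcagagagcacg
Hspe1, chr1:55087898-55088197, plus strand: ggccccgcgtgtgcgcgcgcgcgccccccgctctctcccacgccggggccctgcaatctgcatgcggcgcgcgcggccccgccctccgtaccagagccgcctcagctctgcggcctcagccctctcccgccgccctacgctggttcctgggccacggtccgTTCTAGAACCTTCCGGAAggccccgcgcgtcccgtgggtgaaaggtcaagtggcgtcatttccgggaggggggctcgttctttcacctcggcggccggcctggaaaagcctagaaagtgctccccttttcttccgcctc
The match lay 42 bases before the start in Cct2, 34 bases before it in Cct5 and 24 bases after it in Cct6a. In Hspe1 the array began 89 bases before the start. The element TGATGNAA, to which ATF4 and its partners bind, was in none of the 9 windows and in 3.97% of all promoters. GC boxes (GGGCGG) were in 8 of the 9 windows, covering all 7 genes, against 35.7% of all promoters, and CCAAT boxes in 4 of the 9 against 37.4%. A match is a match of letters only, and its absence refers to this window alone.

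After HS for 45 min none of the 8 subunits passed the test against control, in a comparison in which edgeR called 0% of the 12731 genes higher and 0% lower (1568 higher and 912 lower at an unadjusted p under 0.05, and 451 genes called by DESeq2). The point estimates were all below 0, from −0.13 ± 0.24 (log2 fold change ± SE) for Cct4 to −1.55 ± 0.83 for Cct2, with a median of −0.83. Of all genes, 51.8% had an estimate below 0. At an unadjusted p under 0.05, 1 subunit (Tcp1, −1.19 ± 0.48, adjusted p = 0.25) was lower, against 7.16% of all genes. Cct3, Cct5 and Cct7 were lower in all 3 HS samples than in any control on the scale of normalised counts, as were 12.8% of all genes. Cct2 had 164, 268 and 273 RPKM in control replicates 1, 2 and 3 and 34.1, 10.2 and 189.7 RPKM in the same order at HS 45 min. The third HS 45 min library thus lay inside the control range while the first and the second were far below it. For Cct4 the values at HS 45 min were 78.75, 84.6 and 74.4 RPKM against 73.3, 109 and 116 in the controls. These groups overlapped, and the low libraries of the other subunits were not low for Cct4.

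The HS 45 min result depended on which libraries were used. Without HS 45 min replicate 3, 6 subunits (Tcp1, Cct2, Cct3, Cct5, Cct6a and Cct7) were called lower, in a fit that called 23.9% of all genes lower and 21.5% higher. Without replicates 1 and 2, the libraries with the steep GC relation, the estimates of the single remaining library ranged from −0.18 for Cct6a to −0.42 for Tcp1. That fit leaves 1 HS library, whose spread is assumed to be that of the controls. With all libraries of both groups and a GC offset in the fit, the estimates ran from −1.45 for Cct2 to 0.35 for Cct4. Their median was −0.89, and 0 subunits were called, in a fit that called 0% of all genes. The part of the GC relation in the lower subunit levels of HS 45 min replicates 1 and 2 was not tested.

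After HS for 135 min the subunits again did not pass the test, but they no longer all pointed the same way. The estimates were below 0 for 7 subunits (51.2% of all genes), from −0.33 ± 0.28 for Cct7 to −1.06 ± 0.52 for Cct2, and above 0 for Cct6a alone (0.24 ± 0.26, adjusted p = 0.55). None was called, against 4.75% of all genes called higher and 2.64% called lower. Cct3 (−0.71 ± 0.26, adjusted p = 0.12) and Cct4 (−0.58 ± 0.23, adjusted p = 0.14) were lower in all 3 HS samples than in any control, on the scale of normalised counts, which 19% of all genes also were. They were also the 2 subunits with an unadjusted p under 0.05, against 13.5% of all genes. Without HS 135 min replicate 2, the library with a steep GC relation, 0 subunits were called, in a fit that called 5.71% of all genes higher and 4% lower. The median went from −0.65 to −0.43 there and the estimate of Cct7 to −0.08. Without HS 135 min replicate 1, 2 subunits (Cct3 and Cct5) were called lower, in a fit that called 7.32% of all genes lower and 12.1% higher.

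Cct6a had 175, 89.7 and 123 RPKM at HS 135 min, 87.7, 130.4 and 150.2 in the controls, and 47.4, 50.8 and 108 at HS 45 min. Its HS 135 min and control samples overlapped. As a share of the summed RPKM of the 8 subunits, Cct6a had 9.12% ± 0.37 in the controls (8.86% to 9.54%) and 16.6% ± 2.55 at HS 135 min (14.2% to 19.3%), a description in which these groups did not overlap. At HS 45 min its share was 11.3% ± 3.56 (8.63% to 15.3%), which overlapped HS 135 min through replicate 2. Without HS 135 min replicate 2 its share was 14.2% and 16.3% in the other HS 135 min libraries. The share of Cct2 was 17.4% ± 0.92 in the controls and 11.3% ± 4.64 at HS 135 min, or 12.8% and 15.1% in the libraries other than replicate 2. Compared with Tun at the same 135 min, Cct6a was higher by 0.87 ± 0.28 (adjusted p = 0.15) with no overlap between the groups, as were 13.4% of all genes. It was the 1 subunit with an unadjusted p under 0.05, as 10.2% of all genes were, and no subunit was called in that comparison (1.3% of all genes higher and 0.817% lower). Without HS 135 min replicate 2 and Tun 135 min replicate 1, the estimate for Cct6a was 0.84 and it was called (adjusted p = 0.027), in a fit that called 6.79% of all genes higher and 5.25% lower. Compared with HS 45 min it was higher by 0.91 ± 0.31 (adjusted p = 0.35), also with no overlap, as were 9.43% of all genes. In that comparison edgeR called 0% of all genes higher and 0% lower, 658 genes were higher (5.17%) and 823 lower at an unadjusted p under 0.05, and DESeq2 called 403 genes and no subunit. Without the 3 HS libraries with a steep GC relation the estimate for Cct6a was 0.61 (adjusted p = 0.93).

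Other chaperone genes did pass the test at HS 135 min. In this comparison 4.75% of all genes were called higher and 2.64% lower. Of 12 cytosolic heat shock genes (a list that includes Hsf1, a transcription factor gene), 8 were higher and 0 lower. Among them were Hspa1a (7.20), Hspa1b (7.24) and Hsph1 (3.33), which encode HSP70 and HSP110 family chaperones. Hspe1, which encodes the lid of the mitochondrial chaperonin, was higher by 1.73 ± 0.25 (adjusted p = 0.015), and its partner Hspd1 was not called (0.63 ± 0.35). Of these genes Hspe1, Hspd1 and Hsph1 carry the 3-unit array, and Hspa1a and Hspa1b do not. The median of the 12 cytosolic genes was 1.51 and that of the 8 TRiC subunits −0.65, beside −0.02 over all genes tested. Among the substrates, 3 of 12 tubulin genes were lower (Tubb2c −1.67, Tuba1b −1.34 and Tuba4a −1.28), as were 2 of 6 actin and actin-related genes (Actg2 −2.27 and Actr2 −1.42). Among the partners, 0 of 6 prefoldin subunits and 0 of 3 tested phosducin-like genes passed. Bbs12, a chaperonin-like gene of the Bardet-Biedl complex, was lower by 2.45, Tbcd, a tubulin folding cofactor, was lower by 0.97, and Cdc20, a WD40 substrate that drives exit from mitosis, was lower by 1.54 on the log2 scale. Of 6 ER stress genes 3 were higher and 0 lower (Ddit3 2.32, Atf4 1.57 and Hspa5 0.96). Of the 15 list genes called and chosen for naming at HS 135 min, all 15 kept their direction in every alternative run for them, and 14 were called without HS 135 min replicate 2 (Tbcd, adjusted p = 0.053, was not). Only Hspa1a and Hspa1b were called whichever sample was left out. With the replicate number added to the fit as a block, 0 genes were called in this comparison, Hspa1a and Hspa1b included. Without control replicate 2, control replicate 3 or HS 135 min replicate 3, 3 of the 12 cytosolic heat shock genes were called and 0 tubulin or actin genes. These fits called 15, 11 and 11 of all genes tested, in that order, and 0.0236%, 0.00785% and 0% lower. At HS 45 min no gene of these lists was called.

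**Figure D2:**
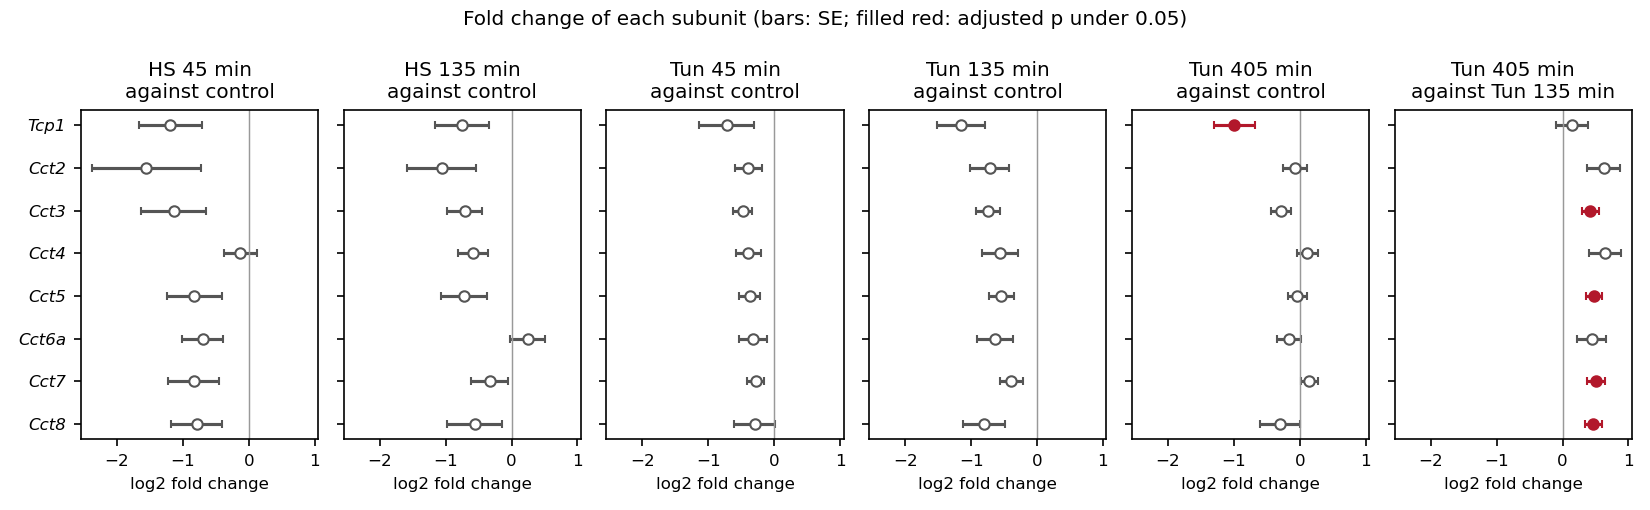
Log2 fold change of each subunit (x axis) with its SE in 6 comparisons (panels); filled red points have an adjusted p under 0.05 and open points do not. Estimates lie left of 0 for nearly all subunits after HS and after 45 or 135 min of Tun, Tcp1 is filled at Tun 405 min, and Cct3, Cct5, Cct7 and Cct8 are filled to the right of 0 at Tun 405 min against Tun 135 min.

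Tun for 45 min gave small and similar estimates for all subunits. They ranged from −0.28 ± 0.13 for Cct7 to −0.72 ± 0.42 for Tcp1 with a median of −0.38, and all 8 were below 0, as were 50.4% of all genes. None passed the test, against 4.01% of all genes called higher and 2.17% called lower. At an unadjusted p under 0.05, Cct3 (−0.48 ± 0.15, adjusted p = 0.092) and Cct5 (−0.38 ± 0.16, adjusted p = 0.19) were lower, a rule that 11.5% of all genes met. Cct3 and Cct7 were lower in all 3 Tun samples than in any control on the scale of normalised counts, as were 16% of all genes. For Cct3 the Tun 45 min samples had 143, 148 and 132 RPKM and the controls 148, 199 and 212. Without control replicate 1, 6 subunits (Cct2, Cct3, Cct4, Cct5, Cct7 and Cct8) were called lower, in a fit that called 8.7% of all genes lower. Control replicate 1 was the lowest control for each of the 8 genes. In the same comparison 5 of 12 tubulin genes were lower, with Tuba1b at −1.37, Tubb2c at −1.26 and Tuba4a at −1.08, and 2 of 6 actin genes, with Actg2 at −2.52 and Acta2 at −0.71. Cdc20 was lower as well, at −0.80. Of the 12 cytosolic heat shock genes 4 were lower, among them Hspa1b (−1.40), Hspa1a (−1.35) and Dnajb1 (−0.96), whereas 0 of 6 prefoldin and 0 of 3 phosducin-like genes passed. Of 6 ER stress genes 3 were higher and 0 lower (Ddit3 2.92, Atf4 0.76 and Xbp1 0.71). Ddit3 was called in all 6 fits that left out 1 sample, and Atf4 and Xbp1 each in 2 of the 6. Without Tun 45 min replicate 2, 0 tubulin and 0 heat shock genes were called, in a fit that called 0.0236% of all genes lower and 0.432% higher. Of the actin genes Actg2 alone was called in all 6 fits that left out 1 sample. No heat shock gene of the 12 was called without Tun 45 min replicate 1, Tun 45 min replicate 2, control replicate 2 or control replicate 3. The fits without those samples called 0.361%, 0.0236%, 0.141% and 0.134% of all genes lower, in that order. With the replicate number as a block in the fit, 0% of all genes were called lower and 0.165% higher.

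At Tun 135 min all 8 estimates were again below 0, as were 50.2% of all genes, but none passed. They ranged from −0.39 ± 0.17 for Cct7 to −1.15 ± 0.37 for Tcp1, with a median of −0.68. In that comparison 0.126% of all genes were called higher (16 genes) and 0.00785% lower (1 gene). The labels give only a replicate number, so whether the samples were paired is not known. Same-numbered samples of this comparison deviated together, and with the number as a block 0 genes were called. With the block the subunit median was −0.68 and the smallest adjusted p of a subunit was 0.069 (Tcp1). The other values given here are without the block. An unadjusted p under 0.05 was reached by 6 subunits (Tcp1, Cct2, Cct3, Cct5, Cct6a and Cct8), all lower, against 8.49% of all genes. Cct3, Cct5 and Cct7 were lower in all 3 Tun samples than in any control on the scale of normalised counts, as were 13.6% of all genes. The smallest adjusted p among them was 0.12, for Cct3 (−0.74 ± 0.18), which had 90.2, 112 and 119.7 RPKM at Tun 135 min. Leaving out Tun 135 min replicate 1, the library with a steep GC relation, gave a median of −0.60 and 0 calls. That fit called 0.385% of all genes higher and 0.0943% lower. The summed RPKM of the subunits was 832 ± 128 at Tun 135 min, 1077 ± 105 at Tun 45 min and 1167 ± 96.0 at Tun 405 min. None of the genes in the substrate, partner and heat shock lists was called at Tun 135 min. Between Tun 135 min and Tun 45 min no subunit was called either (0.118% of all genes higher and 0.173% lower), with Cct8 the furthest apart at −0.50 ± 0.12 (adjusted p = 0.16). Cct8 was the 1 subunit with an unadjusted p under 0.05 there (7.69% of all genes were lower by this rule), Cct3 and Cct8 were lower without overlap (13% of all genes), and all 8 estimates were below 0 (52.4% of all genes). Without Tun 135 min replicate 1 the estimate for Cct8 was −0.44 (adjusted p = 0.097) and the median went from −0.29 to −0.17.

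At Tun 405 min against control 1 of the 8 subunits was called. Tcp1 was lower by 0.99 ± 0.31 on the log2 scale (adjusted p = 0.030), in a comparison in which 23.5% of all genes were called lower and 23.3% higher. It had 46.0, 107 and 124 RPKM in the controls and 54.2, 37.1 and 38.6 at Tun 405 min. The groups overlapped, because control replicate 1 was below the first Tun sample. Its share of the summed subunit RPKM was 6.62% ± 1.73 in the controls and 3.68% ± 0.50 at Tun 405 min. Earlier in the course, where it was not called, Tcp1 had 81.9, 65.2 and 29.2 RPKM at Tun 45 min and 24.1, 46.1 and 49.4 at Tun 135 min. The other subunits had estimates from −0.30 ± 0.30 for Cct8 to 0.15 ± 0.13 for Cct7, and the median of the 8 was −0.12. In all 6 were below 0, as were 50.7% of all genes. Tcp1 was the 1 subunit lower at an unadjusted p under 0.05 (27.4% of all genes), and 0 subunits were lower without overlap between the groups (29.5% of all genes).

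The call for Tcp1 depended on which samples were used. Leaving out control replicate 1 gave 5 subunits called lower (Tcp1, Cct2, Cct3, Cct6a and Cct8), where 30.5% of all genes were. Leaving out any of the other 5 samples (control replicates 2 and 3 and Tun 405 min replicates 1, 2 and 3) gave 0. The fits with 0 called 21.2%, 21%, 21.5%, 16.1% and 16.6% of all genes lower, in that order. Over all 6 fits that left out 1 sample, the estimate for Tcp1 stayed between −1.30 and −0.77, with adjusted p from 4.9e-05 to 0.10. In the annotation, exons of Tcp1 share 141 bases with Mrpl18 on the opposite strand, and Mrpl18, a mitochondrial ribosomal protein gene, was lower by 0.76 ± 0.17 (adjusted p = 0.0069). They also share 571 bases with Acat3, which had 2 to 24 reads per sample. Which libraries, if any, kept strand information is not given in the sources used here, and neither is whether the counting used it. The part of reads from the shared bases was not tested.

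The later part of the Tun course was compared directly, as Tun 405 min against Tun 135 min. This comparison shares its Tun samples with those against control. In it 4 subunits were higher and 0 lower: Cct3 by 0.42 ± 0.13 (adjusted p = 0.035), Cct5 by 0.47 ± 0.12 (adjusted p = 0.017), Cct7 by 0.51 ± 0.13 (adjusted p = 0.016) and Cct8 by 0.47 ± 0.13 (adjusted p = 0.020). Of all genes 21.4% were called higher and 22.4% lower. The estimates of Cct2 (0.62 ± 0.25, adjusted p = 0.075), Cct4 (0.65 ± 0.24, adjusted p = 0.064) and Cct6a (0.44 ± 0.22) were of like size but did not pass, and that of Tcp1 was 0.14 ± 0.24. The median of the 8 was 0.47, beside −0.01 over all genes. On the scale of normalised counts, 7 of the 8 subunits were higher in all 3 Tun 405 min samples than in any Tun 135 min sample, as were 29.8% of all genes, and 6 had an unadjusted p under 0.05, as did 25.8% of all genes in that direction.

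Cct5 had 186, 191 and 216.5 RPKM at Tun 135 min and 284, 276 and 262 at Tun 405 min. Cct7 had 144, 171 and 193 RPKM at the earlier time and 259, 226 and 234 at the later. Both genes were separated between the times, and both later groups lay within or just above the range of the controls, which was 236 to 348 for Cct5 and 199 to 252 for Cct7. Cct3 had 163, 136 and 130.5 RPKM at Tun 405 min against 90.2, 112 and 119.7 at Tun 135 min. Cct8 had 63.9, 53.3 and 50.02 RPKM at Tun 405 min against 35.4, 41.0 and 44.9 at Tun 135 min. Here too no later sample was as low as an earlier one. Without Tun 135 min replicate 1, 6 subunits were called (Cct2 and Cct4 in addition, with Cct4 at 0.94 and Cct2 at 0.38), and 32.2% of all genes were called higher. Without Tun 135 min replicate 2, Tun 405 min replicate 1 or Tun 405 min replicate 2 there were 0 calls. Of all genes 16%, 16.9% and 13.5% were called higher in these fits, in that order. Without Tun 405 min replicate 3 there was 1 call (Cct8), with 13.3% of all genes called higher. Without Tun 135 min replicate 3 there were 3 (Cct5, Cct7 and Cct8), with 17.2%.

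The partners and substrates of the chaperonin were among the genes that passed at Tun 405 min against control. Of the 6 prefoldin subunits 2 were higher and 0 lower (Pfdn2 by 1.13 ± 0.16 and Vbp1 by 1.06 ± 0.34), and of 3 tested phosducin-like genes 2 were higher (Pdcl by 0.73 and Pdcl3 by 0.62). Both counts stand beside 23.3% of all genes called higher and 23.5% called lower in this comparison. The median was 0.42 for prefoldin and 0.62 for the phosducin-like genes, beside −0.01 over all genes and −0.12 over the TRiC subunits. Among substrates, 9 of 12 tubulin genes were lower and 1 higher, with Tuba1b at −1.60, Tubb2c at −1.10 and the neuronal isotype Tubb3 at 2.07, and 5 of 6 actin and actin-related genes were lower, with Actg2 at −2.87, Actb at −1.58 and Actr2 at −1.07. Tubulin folding cofactors moved both ways, with Tbcb higher by 1.90, Tbce higher by 0.86 and Tbcd at −0.86. Of the WD40 and other substrates 1 of 7 passed, Rptor, the substrate-binding part of mTORC1, at −0.64. Of the 22 list genes called and chosen for naming at this time, 18 were called in all 6 fits that left out 1 sample, and Vbp1, Pdcl3, Tbce and Rptor were each called in 3 of the 6.

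Other chaperones at Tun 405 min also went in different directions. Of the 12 cytosolic heat shock genes 7 were lower and 1 higher, with the constitutive HSP70 gene Hspa8 at −1.56, Hspa1a at −1.15 and Hsp90aa1 at −1.10. The counts of this paragraph stand beside 23.3% of all genes called higher and 23.5% called lower. Hspe1 was higher by 0.93 ± 0.22 (adjusted p = 0.0084), and among 4 tested chaperonin-like paralogs Bbs12 was lower at −1.42. The 6 ER stress genes examined were all higher, with Ddit3 at 5.22, Dnajb9 at 4.48 and Hspa5 at 3.73. At the same time 6 of the 8 fibroblast markers were called lower, and their summed level was 4324 to 4823 RPKM at Tun 405 min against 9150 to 9636 in the controls. The summed level of 8 markers of other cell types was 5.05 to 5.75 RPKM at Tun 405 min and 4.91 to 6.89 in the controls, almost all of it from Cd68. The part of these changes in the subunit results was not tested.

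Whether the subunits moved together was described by the correlation of log2 CPM (counts scaled to library size, normalised by TMM) of each subunit with the mean of the other 7 over the 18 samples. The coefficient (Pearson r) was 0.91 for Cct7, 0.90 for Cct2, 0.88 for Cct3, 0.88 for Cct5, 0.82 for Cct8, 0.74 for Tcp1 and 0.63 for Cct6a, but 0.14 for Cct4. Among genes with a mean of at least 10 CPM, Cct2 was at the 99.4th percentile of the correlation with the same mean. Cct6a was at the 78.4th and Cct4 at the 57.4th, the lowest, and the other subunits lay between Cct6a and Cct2. Over the 28 pairs the median r was 0.63. Cct2, Cct3, Cct5 and Cct7, the 4 most abundant subunits in the controls, had r of 0.92 to 0.95 with one another, and Tcp1, Cct6a and Cct8 had 0.65 to 0.82 with one another. These groupings were noticed in the values and not chosen beforehand. Cct4 had between −0.06 (with Cct6a) and 0.40 (with Cct8).

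**Figure D3:**
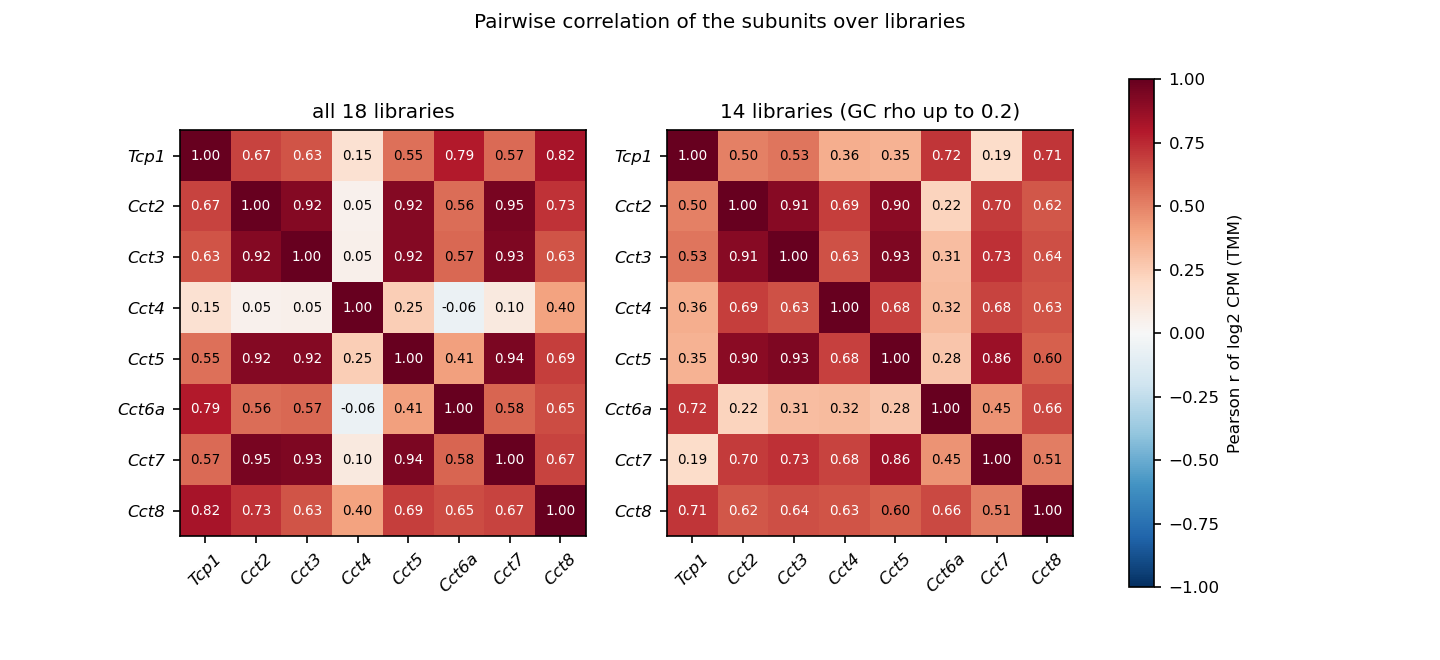
Pearson r of log2 CPM between each pair of subunits over all 18 libraries (left) and over the 14 libraries without a steep GC relation (right), with colour from −1 (blue) to 1 (red). The row of Cct4 is pale on the left, from −0.06 to 0.40, and redder on the right, from 0.32 to 0.69.

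The co-variation was also present between libraries of the same group. When the group means were taken out, r with the mean of the other 7 was 0.76 to 0.92 for the 7 subunits other than Cct4 and −0.12 for Cct4. Among genes with a mean of at least 10 CPM these 7 values lay between the 77.5th (Cct8) and the 97.4th (Cct2) percentile of the correlation with the same mean. Between libraries of the same group many other genes thus followed it as closely. Without the 4 libraries with a steep GC relation, r over the other 14 samples was 0.68 for Cct4, between 0.55 (Cct6a) and 0.83 (Cct3) for the others, and no pair was negative, the lowest being Tcp1 and Cct7 with 0.19. The percentiles over these 14 samples ran from 88.2 (Cct6a) to 99.4 (Cct3), with Cct4 at 96.0. The mean level of the 8 subunits and the GC rho of a library had r = −0.89 over the 18 samples and −0.92 after subtraction of group means. For single subunits the second value was from −0.94 for Cct6a to −0.65 for Cct3, and 0.12 for Cct4. The transcripts of the subunits had GC contents from 43.3% for Cct8 to 54.0% for Cct7, with 45.1% for Cct4 and a median of 50.6% over the 12431 tested genes with a known transcript. Of the subunits with the lowest GC, Cct8 had r = −0.81 and Cct4, the 1 subunit above 0, had 0.12. The part of transcript GC in these values was not tested. These points share libraries and depth, and the values are descriptions.

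**Figure D4:**
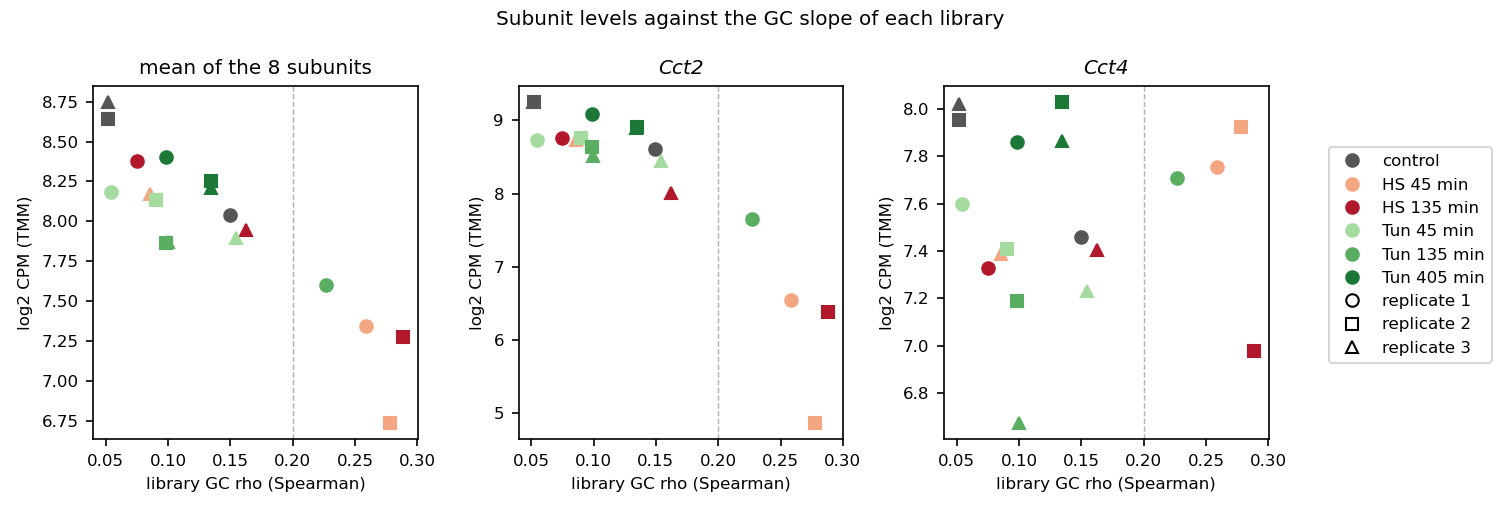
Log2 CPM of the mean of the 8 subunits, of Cct2 and of Cct4 (y axes) against the Spearman rho between gene level and transcript GC content in each of the 18 libraries (x axis); colours are groups, symbols are replicates and the dashed line marks 0.2. The subunit mean is lowest in the 4 libraries right of the line, Cct2 spans the widest range, and Cct4 shows no such order.

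The genes whose pattern was most like the mean of the 8 subunits over the 18 samples, among 8279 genes with a mean of at least 10 CPM, were Rpl7l1 (r = 0.97), Psat1 (0.96), Anxa3 (0.96), Atp6ap2 (0.96), Cnot8 (0.96), Hnrnpc (0.96), Atl2 (0.95), Paics (0.95), Nusap1 (0.95) and Vps54 (0.95). In all, 125 genes had r above 0.9, so the likeness was shared by many. Without TMM, 9 of these 10 were again among the first 10, but over the 6 group means 0 were, and without the 4 libraries with a steep GC relation 3 were.

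Compared across the stresses at 45 min, the subunits had estimates for HS against Tun from −1.15 ± 0.85 for Cct2 to 0.28 ± 0.20 for Cct4, with 0 called (0.0628% of all genes higher and 0.141% lower). The median was −0.47, and it was 0.08 without HS 45 min replicates 1 and 2. Leaving out HS 45 min replicate 3 gave 6 subunits called lower, with 28.8% of all genes. At 135 min the median of HS against Tun was 0.03, and 0.34 without HS 135 min replicate 2 and Tun 135 min replicate 1. Between HS 135 min and HS 45 min the median was 0.39, or −0.01 without the 3 HS libraries with a steep GC relation. The SE of the difference between HS and Tun was 0.85 at 45 min and 0.56 at 135 min for Cct2, and 0.20 and 0.27 for Cct4.

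In the gene coordinates of the files (build mm9), the subunits lie on 8 different chromosomes: Tcp1 at chr17:13109331-13117933, Cct2 at chr10:116488054-116500870, Cct3 at chr3:88101057-88125688, Cct4 at chr11:22890593-22903336, Cct5 at chr15:31520639-31531559, Cct6a at chr5:130293261-130322231, Cct7 at chr6:85401499-85418471 and Cct8 at chr16:87483570-87496114. Exons of Cct7 and Cct8 share 214 bases with 1700040I03Rik and 193 bases with Usp16 on the opposite strand. At Tun 405 min against Tun 135 min those neighbours were at −0.12 ± 0.15 and 0.47 ± 0.21, and neither passed (adjusted p = 0.54 and 0.11). Annotated pseudogenes of Cct3 and Tcp1 exist, and how reads matching both copies were assigned is not given in the sources used here.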

How the data were processed

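Poly(A) RNA of 18 samples (6 groups of 3) was sequenced. The authors mapped the reads to the mouse build mm9 with RefSeq gene models on the DNAnexus platform. The aligner, counter and their versions are not given in the sources used here. The deposited files hold estimated counts per gene, written with few significant digits, and RPKM, which the authors scaled to gene length and library size. The deposited Z-score (a score per gene) and root-mean-square normalised RPKM (a signal) were not used.

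Counts were rounded to whole numbers, and genes with at least 1 read in all 18 samples were kept (12731 of 20207). Pairs of groups were compared with the quasi-likelihood test of edgeR 4.0.16 (TMM normalisation, R 4.3.3), with Benjamini-Hochberg adjustment over all genes tested, called at adjusted p under 0.05. The SE is the absolute log2 fold change divided by the root of F. log2 CPM used a prior count of 0.5. Total reads were 33415592 to 66478268 per sample, so 3 reads, the floor of detection, correspond to 0.0451 to 0.0898 CPM, counting error only. Transcript GC came from GENCODE vM1 (19513 of 20207 genes). Alternatives used DESeq2 1.42.0, limma 3.58.1 (log2 of RPKM plus 0.1), other filters and scalings, a GC offset, a replicate block and each sample left out. Functions were tested on simulated counts.

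The subunits, gene lists and the rule for named genes were chosen with earlier results of these data known. From each list the text names up to 3 called genes with the largest absolute log2 fold change and a mean of at least 50 reads in the higher group, per comparison with control. It also names the 10 genes most correlated with the subunit mean. The labels do not say whether same-numbered samples were paired. Same-numbered samples deviated together in Tun 135 min against control (r = 0.282, 0.226 and 0.186), and the replicate block changed no call of a subunit there. The main fits of all comparisons are without the block. In no other comparison did all same-numbered samples deviate together. Replicates of a group differed by more than sampling noise (chi-square per degree of freedom of 14.3 or more).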

Additional observations from a re-analysis of the deposited data

Results flagged for a closer look

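In a direct comparison of Tun 405 min with Tun 135 min, 4 subunits differed between the times past the threshold: Cct3 by 0.42, Cct5 by 0.47, Cct7 by 0.51 and Cct8 by 0.47 on the log2 scale, all higher at the later time in 3 of 3 samples. The comparison called 21.4% of all genes higher. Between HS and Tun no subunit passed the threshold at 45 or 135 min in the main edgeR test, but Cct6a at 135 min passed in some alternatives. At 45 min 6 subunits passed in 1 alternative only, without HS 45 min replicate 3, where 28.8% of all genes were called lower.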

How the results depend on the processing

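The 5 subunit results called in the comparisons kept their direction under every alternative run for them, but not their side of the threshold. Calls of subunits at Tun 405 min against control went from 1 to 0 in a fit of all 6 groups, with a replicate block (Tcp1 −0.92), with a GC offset and replicate block together, and with limma on RPKM. These fits called 16.1%, 20.3%, 25.7% and 25.1% of all genes lower, in that order. For Tun 405 min against Tun 135 min the calls went from 4 to 1 in the fit of all 6 groups (Cct4, while the 4 lost their calls) and to 0 with the replicate block, where the 4 adjusted p were 0.070 to 0.12. These fits called 17.3% and 14.2% of all genes higher. The calls went to 6 with DESeq2 (23.2% of all genes higher) and to 6 without Tun 135 min replicate 1 (32.2%), both with Cct2 and Cct4 in addition. With the GC offset (26.4%) they were 5, with Cct2 and Cct6a in addition and Cct8 lost (adjusted p = 0.057). With total counts (18.8%) they were 3, with Cct4 in addition and Cct3 and Cct8 lost (0.10 and 0.062). With limma on RPKM (22%) they were 4, with Cct4 in addition and Cct3 lost (0.063). In other comparisons the calls rose from 0 (in brackets, the share of all genes called in the same direction). At Tun 45 min against control they went to 1 with DESeq2 (6.98%) and to 1 with the GC offset (6.45%). At Tun 135 min against control they went to 2 with DESeq2 (2.73%) and to 1 with the GC offset (0.966%). They went to 1 with all 6 groups at HS 135 min against HS 45 min (3.61%) and to 1 with DESeq2 at Tun 135 min against Tun 45 min (2.5%). At HS 135 min against Tun 135 min they went to 1 with all 6 groups (7.84%), with the GC offset (6.22%) and without the libraries over a GC rho of 0.2 (6.79%). The last alternative was chosen after seeing the data. Leaving out 1 sample at a time gave 0 to 6 calls at HS 45 min, 0 to 2 at HS 135 min, 0 to 6 at Tun 45 min, 0 to 5 at Tun 405 min, 0 to 6 at Tun 405 against 135 min and 0 to 6 at HS 45 min against Tun 45 min. The fits with the most calls called, in that order, 23.9%, 7.32%, 8.7% and 30.5% of all genes lower, 32.2% higher and 28.8% lower. The replicate block changed no other count of subunits called; outside Tun 135 min against control, 0 to 3 of 6 samples per comparison deviated most like their own number.

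Reversed estimates were few and none was called in the main test. With the GC offset Cct4 at HS 45 min was 0.35 (0.28 with the block), and Cct2 at Tun 405 min was 0.0256 (0.0386 with the block). Leaving out 1 sample moved Cct4 at HS 45 min between −0.28 and 0.0109, and at Tun 405 min Cct2 between −0.25 and 0.00394, Cct4 between −0.0379 and 0.19 and Cct5 between −0.16 and 0.0358. The correlation of Cct4 with the other subunits was −0.12 on deviations from group means. The cause of these shifts was not tested. The subunits had 1338 to 47800 reads per library, while SE reached 0.9957 (Cct2, HS 135 min against HS 45 min), so the spread between 3 samples per group rather than read depth limits these comparisons. Alternatives for list genes were chosen after seeing the data.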
